A study of Mus musculus with 3 samples.

Results

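The genes described here encode enzymes of cholesterol and fatty acid synthesis, together with the proteins that regulate them. They were taken as a list of 32 gene symbols, and 29 of these matched at least 1 named probe on the array, out of 16593 named genes. Acat2, Mvk and Fdft1 matched none, so their expression was not analysed here. The matched genes comprised 15 sterol synthesis enzymes, 8 fatty acid enzymes and 6 genes of regulation and sterol transport, and were covered by 39 probes.

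Gene expression had been measured on Illumina bead arrays in 3 mouse pluripotent cultures, 1 array each. E3 epiblast stem cells, a line of hybrid background, resemble the epiblast after implantation and grew on inactivated CF1 embryonic fibroblasts in KSR medium with 5 ng/ml FGF2. E3R cells came from that line by reversion of epiblast stem cells towards the embryonic stem cell state. The reverted cells and the CGR8 embryonic stem cell line grew without feeders, on gelatin, in KSR medium with the MEK inhibitor PD0325901 at 1 µM, the GSK3 inhibitor CHIR99021 at 3 µM and 1000 U of LIF. All 3 cultures are labelled untreated beyond their media. Each culture is 1 line. Line, medium, feeder layer and harvest differ together between epiblast and embryonic stem cells. Medium, feeders, harvest and reversion differ together within the E3 line, and line and reversion between reverted and embryonic stem cells. None of these can be told apart.

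Cholesterol is built from acetyl-CoA through mevalonate, farnesyl diphosphate and squalene, which is closed into lanosterol and then trimmed in a series of steps. Fatty acids are built from the same acetyl-CoA, which is drawn from citrate, and are then elongated and desaturated. SREBP transcription factors drive the genes of both routes. When membrane sterol is low, Scap escorts SREBP from the endoplasmic reticulum to the Golgi for cleavage, and when sterol is plentiful the Insig proteins hold Scap back.

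Values below are log2 normalized signals with the standard error over the beads of a probe, or differences between them. With 1 array a group there was no replicate check and no p-value, and the bead standard error leaves out variation between cultures, extracts and arrays. Detection of a gene required a detection p-value under 0.01, and differences of 2-fold or more were counted. Where 1 of the 2 arrays did not detect a gene, the difference is a lower bound that could only point to the other array, and is written as "at least". Signals of different probes cannot be compared with each other. In cell cultures such as these, fewer cells expressing a gene and less RNA per cell cannot be told apart.

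Pluripotency markers followed the labels. All 7 primed pluripotency markers were detected in epiblast stem cells, with a summed normalized intensity of 18141, against 4 of 7 in reverted cells (2653) and in embryonic stem cells (2457). Of 7 naive markers 4, 6 and 6 were detected in the same order, with summed intensities of 484, 25433 and 28078. Of 15 fibroblast genes listed as markers of the feeder layer, 7 were detected in epiblast stem cells, 1 in reverted cells and 0 in embryonic stem cells, with summed intensities of 851, 348 and 322. Thy1, Bgn, Dcn, Acta2, Fbln2, Col6a1 and Tagln were the 7, of which Thy1 was at least 6.38-fold, Bgn at least 3.26-fold and Dcn at least 2.57-fold higher in epiblast than in reverted cells, and Acta2 2.31-fold. The fibroblast collagen genes Col1a1, Col1a2 and Col3a1 were detected on no array. The part of feeder RNA in the differences below was not tested.

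Within the E3 line, sterol synthesis enzymes were lower in reverted than in epiblast stem cells. All 15 matched enzymes had differences below 0, of which 3 were bounds that could take no other sign, and 7 were at least 2-fold lower. The median log2 difference was −0.80, against −0.02 over all 7726 genes with a value. Of those genes 12.4% lay 2-fold or more below epiblast stem cells. Over the 12 enzymes detected on both arrays the median was −1.27. No sterol enzyme was 2-fold higher, a class that held 12.7% of all genes. Of 8 reference genes, 4 lay above 0 and 4 below, with a median of −0.11, and Hprt was 2.89-fold lower in reverted cells.

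In the mevalonate arm, the sharpest difference was that of Mvd (gene on chromosome 8), which decarboxylates mevalonate diphosphate to isopentenyl diphosphate. Its raw intensity was 1007 in epiblast stem cells, 239 in reverted cells and 309 in embryonic stem cells. After normalization these were 9.85 ± 0.08, 7.62 ± 0.11 and 7.79 ± 0.07 on the log2 scale (bead standard error). Epiblast stem cells stood apart and the other 2 cultures lay close together. Mvd was thus 4.69-fold lower in reverted than in epiblast stem cells (log2 difference −2.23, bead standard error 0.13), while reverted and embryonic stem cells differed by −0.17 (0.13).

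Fdps and Pmvk showed a graded order, highest in epiblast and lowest in reverted cells. Fdps, which makes farnesyl diphosphate, had log2 signals of 12.48, 10.97 and 11.56 in epiblast, reverted and embryonic stem cells. It was 2.84-fold lower in reverted than in epiblast stem cells and 1.50-fold lower than in embryonic stem cells. Pmvk, the phosphomevalonate kinase gene, had signals of 7.81, 6.28 and 7.12. Its 2.90-fold difference within the E3 line came to −0.94 on the log2 scale without background correction, under 2-fold.

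The entry step differed less. Hmgcs1, which forms HMG-CoA ahead of the reductase step, had log2 signals of 13.28, 12.94 and 12.97, and was 1.27-fold lower in reverted than in epiblast stem cells. The difference came to −0.81 in place of −0.34 with scaling to a common median, which leaves the spread of each array as it was, so its size rests on the normalization. It was under 2-fold in all 8 recomputations, unlike that of Mvd. Those that changed only the detection rule or averaged probes could not move either gene. Idi1, the isopentenyl diphosphate isomerase gene, was near the detection limit. It was detected in epiblast stem cells (5.46) and embryonic stem cells (5.16) but not in reverted cells, where it was at least 1.31-fold lower than in epiblast stem cells.

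**Figure D1:**
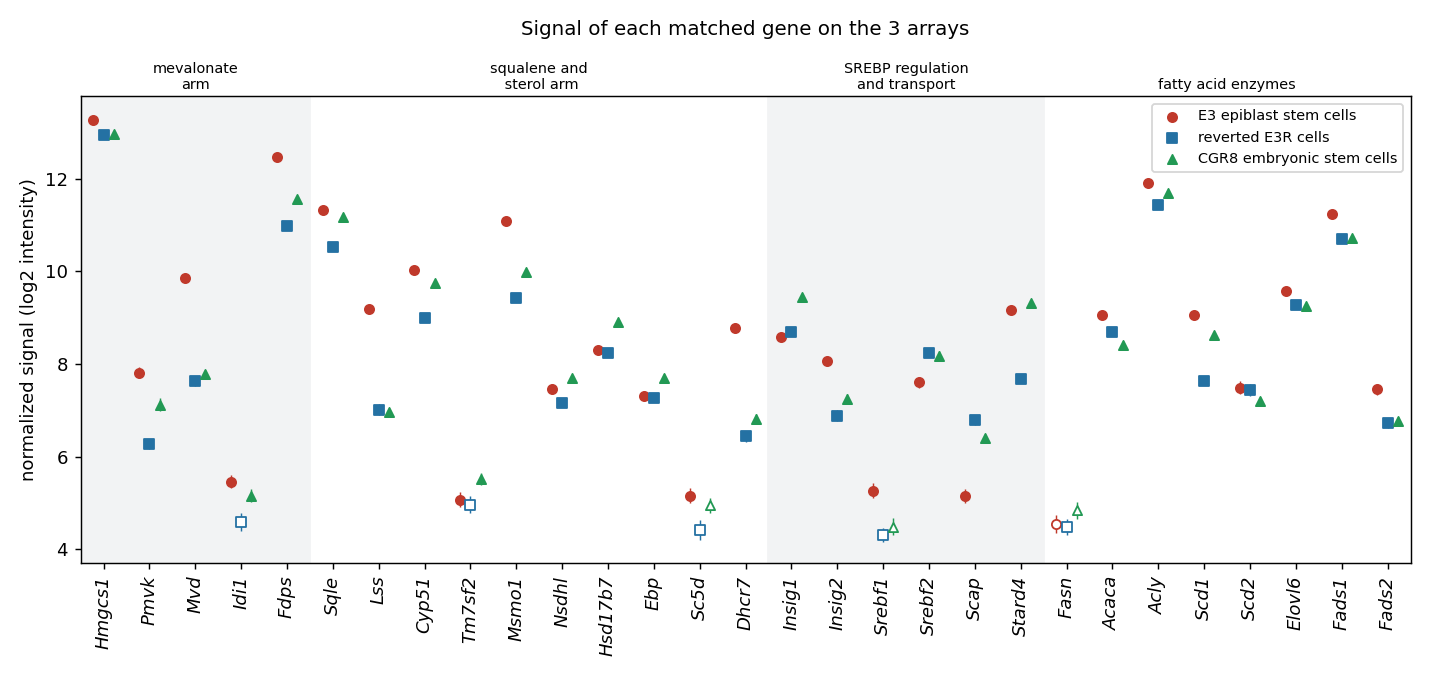
Log2 normalized signal of the 29 matched genes (x axis, by role) on the epiblast (circles), reverted (squares) and embryonic stem cell array (triangles), with the bead standard error as bars where it exceeds the symbol and open symbols where the probe was not detected. Mvd, Lss and Dhcr7 are high in epiblast stem cells alone, Stard4 is low in reverted cells alone, and heights of different genes cannot be compared.

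In the squalene and sterol arm, Lss and Dhcr7 shared the pattern of Mvd. Lss (chromosome 10), the cyclase that closes squalene epoxide into lanosterol, had log2 signals of 9.20 ± 0.07 in epiblast, 7.01 ± 0.11 in reverted and 6.96 ± 0.08 in embryonic stem cells. Dhcr7 (chromosome 7), a reductase of the final step to cholesterol, had signals of 8.78 ± 0.10, 6.43 ± 0.11 and 6.81 ± 0.11. Both were high in epiblast stem cells alone. Within the E3 line Lss was 4.55-fold lower in reverted cells (−2.19, bead standard error 0.14) and Dhcr7 5.07-fold lower (−2.34, 0.15). Over the 8 recomputations with other settings, the differences ranged from −2.38 to −1.66 for Lss, from −2.56 to −1.63 for Dhcr7 and from −2.42 to −1.85 for Mvd, all past 2-fold. Recomputations that changed only the detection rule or averaged probes could not move these genes.

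Msmo1, an oxidase that removes methyl groups from lanosterol derivatives, lay between these and a second pattern. Its log2 signals were 11.08, 9.42 and 9.98, so that it was 3.16-fold lower in reverted than in epiblast stem cells and 1.47-fold lower than in embryonic stem cells. Sqle and Cyp51 were lower in reverted cells than in both other cultures, which differed from each other by 0.14 and 0.28. Sqle, the squalene epoxidase gene, had signals of 11.33, 10.53 and 11.19. Cyp51, the lanosterol demethylase gene, had signals of 10.03, 9.00 and 9.75. The reverted value of Cyp51 was 2.05-fold below that of epiblast stem cells, but under 2-fold without background correction (−0.93) and when the offset of the background model was 50 (−0.99).

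A further pattern was that of Hsd17b7 and Ebp, in which the 2 cultures of the E3 line were alike within bead error and embryonic stem cells were higher. Hsd17b7, a sterol ketoreductase gene, had log2 signals of 8.30, 8.24 and 8.91 in epiblast, reverted and embryonic stem cells. Ebp, the X-linked gene of a sterol isomerase, had signals of 7.31, 7.27 and 7.69. Nsdhl, also X-linked and encoding a sterol dehydrogenase, had 7.47, 7.15 and 7.69, lowest in reverted cells. These 3 genes were within 2-fold in all 3 comparisons.

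The 2 remaining enzymes of this arm were close to the detection limit. Tm7sf2, a sterol reductase gene, was detected in epiblast (5.07) and embryonic stem cells (5.51) and not in reverted cells. Sc5d, a sterol desaturase gene, was detected in epiblast stem cells alone (5.16). Their bounds of at least 1.00-fold and 1.07-fold below epiblast stem cells say little about their size.

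**Figure D2:**
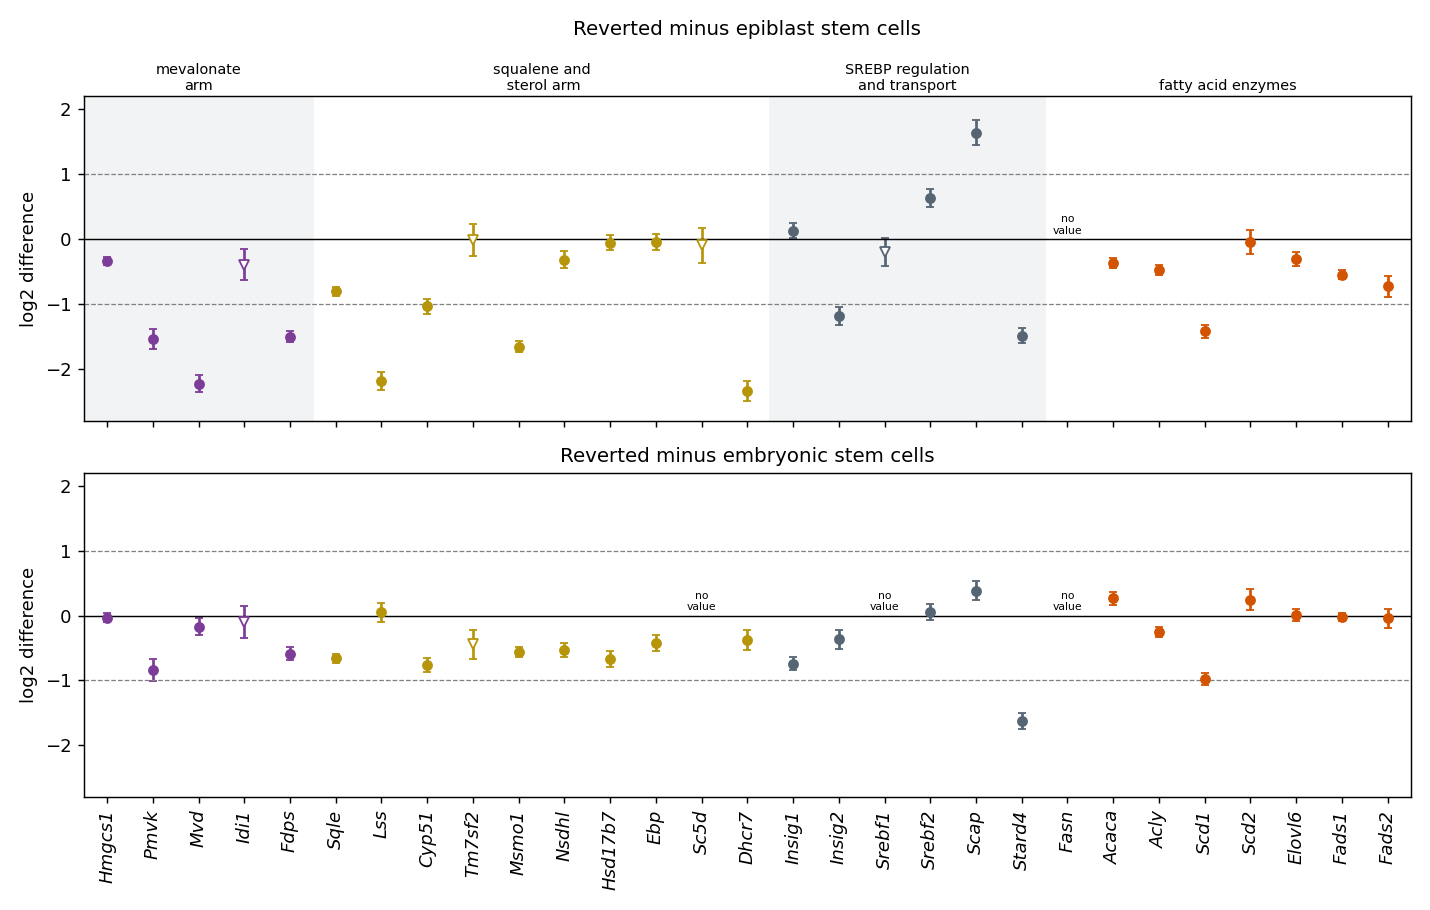
Log2 difference (y axis) of each gene, with the bead standard error as bars, for reverted minus epiblast stem cells (top) and reverted minus embryonic stem cells (bottom). Dashed lines mark 2-fold, and open triangles mark bounds, where 1 array did not detect the gene. In the top panel 7 sterol enzymes lie below the lower dashed line, and in the bottom panel Stard4 alone does.

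Promoter sequences are shown for Mvd and Lss, 2 of the enzymes with the largest differences, for Hmgcs1 from the same route with a small one, and for the fatty acid gene Fads2. Each is the 250 bases before the gene's start, 5′ to 3′ on the gene's strand, from RefSeq on GRCm38.p6. Capitals mark the NF-Y box CCAAT on either strand (ATTGG on the opposite one) and, in Hmgcs1, the SREBP element searched as TCACNCCAC. The windows are chr8:122443423-122443672 on the minus strand for Mvd, chr10:76531355-76531604 on the plus strand for Lss, chr13:119690101-119690350 on the plus strand for Hmgcs1 and chr19:10101504-10101753 on the minus strand for Fads2.
Mvd: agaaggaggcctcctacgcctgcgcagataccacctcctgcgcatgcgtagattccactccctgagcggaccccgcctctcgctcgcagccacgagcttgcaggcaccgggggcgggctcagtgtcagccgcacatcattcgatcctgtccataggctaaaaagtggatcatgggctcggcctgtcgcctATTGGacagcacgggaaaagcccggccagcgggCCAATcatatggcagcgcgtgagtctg
Lss: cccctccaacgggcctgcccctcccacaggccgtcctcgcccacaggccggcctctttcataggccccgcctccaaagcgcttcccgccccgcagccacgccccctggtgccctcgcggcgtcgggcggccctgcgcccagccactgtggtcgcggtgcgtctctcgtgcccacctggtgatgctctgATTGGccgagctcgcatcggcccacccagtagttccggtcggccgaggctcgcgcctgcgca
Hmgcs1: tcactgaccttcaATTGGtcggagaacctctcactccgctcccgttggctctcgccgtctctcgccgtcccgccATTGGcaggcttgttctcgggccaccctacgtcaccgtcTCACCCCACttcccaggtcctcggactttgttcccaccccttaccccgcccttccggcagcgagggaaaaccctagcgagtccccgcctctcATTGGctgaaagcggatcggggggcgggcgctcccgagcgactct
Fads2: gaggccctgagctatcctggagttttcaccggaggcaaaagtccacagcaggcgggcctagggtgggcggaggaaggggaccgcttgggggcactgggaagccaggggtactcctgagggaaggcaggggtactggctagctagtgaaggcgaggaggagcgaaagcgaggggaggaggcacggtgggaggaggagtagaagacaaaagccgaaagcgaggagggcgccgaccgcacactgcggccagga

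NF-Y is a factor known to act beside SREBP at sterol genes. The box lies at bases −60 to −56 and −27 to −23 before the start of Mvd, at −62 to −58 in Lss and, among 3 matches, at −45 to −41 in Hmgcs1, and the Fads2 window has none. Of 18 windows for 15 sterol enzyme genes in the promoter table, Acat2 and Mvk included, 14 (77.8%) held CCAAT, against 33.9% of all 32851 windows of this length. Of 5 windows for fatty acid enzymes 1 held it, that of Fasn. No window was available for Fdps and Sqle among sterol enzymes or for Scd1, Scd2 and Fads1. These matched enzymes are therefore left out of the motif counts. The GC box GGGCGG was in 15 of the 18 sterol windows (83.3%), in 2 of the 5 fatty acid windows and in 32.7% of all. TCACNCCAC was in 1 sterol window, that of Hmgcs1 at −137 to −129, in 0 of the fatty acid windows and in 1.05% of all. Both strands were searched, and no motif overlaps another in the 4 windows shown. Such matches describe the letters of these windows only, and other spellings of the SREBP element were not searched.

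Genes that regulate the route or carry sterol did not share one direction. Stard4, a carrier of cholesterol between membranes, was low in reverted cells alone: its log2 signals were 9.17 ± 0.07 in epiblast, 7.69 ± 0.09 in reverted and 9.31 ± 0.08 in embryonic stem cells. The reverted value lay 2.81-fold below that of epiblast stem cells (−1.49, bead standard error 0.11) and 3.08-fold below that of embryonic stem cells (−1.63, 0.12). Stard4 was the only matched gene past 2-fold between reverted and embryonic stem cells, where 1.54% of all genes lay as far below.

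Scap ran opposite to the enzymes. Its log2 signals were 5.14 ± 0.15 in epiblast, 6.79 ± 0.11 in reverted and 6.40 ± 0.09 in embryonic stem cells, which made it 3.13-fold higher in reverted than in epiblast stem cells (1.64, bead standard error 0.19). The raw intensities behind these values were low, at 102, 162 and 159, and the difference came to 0.71 without background correction, under 2-fold. Scap was the only matched gene at least 2-fold higher in reverted than in epiblast stem cells.

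Of the SREBP genes, Srebf2 differed less than several of the enzymes, and Srebf1 has only a bound. Srebf2, which encodes the SREBP form that chiefly drives cholesterol genes, had log2 signals of 7.60, 8.23 and 8.18, 1.55-fold higher in reverted than in epiblast stem cells. It was thus lowest in epiblast stem cells, where most sterol enzymes were highest. Reverted and embryonic stem cells did not differ in Srebf2 beyond bead error (0.05, bead standard error 0.13). Srebf1, whose products drive fatty acid genes, was detected in epiblast stem cells alone (5.26), with 1 of its 2 probes. Its bound of at least 1.15-fold below epiblast stem cells says little about its size. Without a detection filter the difference was −0.96.

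Insig1 and Insig2 went different ways. Insig1, itself a known SREBP target, had log2 signals of 8.57, 8.70 and 9.44, highest in embryonic stem cells, and was 1.67-fold lower in reverted than in embryonic stem cells. Insig2, which is less dependent on SREBP, had 8.07, 6.88 and 7.25 by its brightest probe, highest in epiblast stem cells. By that probe it was 2.28-fold lower in reverted than in epiblast stem cells. Its dimmer detected probe had 5.73, 5.46 and 5.79, which was not highest in epiblast stem cells. Insig2 was under 2-fold without background correction (−0.81), with the mean of its probes (−0.73) and, narrowly, when the offset was 50.

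Of the 5 matched genes with several probes, 4 had more than 1 detected, and these probes lay closer together for reverted against embryonic than against epiblast stem cells. For Insig1, 3 detected probes gave log2 differences of −0.74, −0.75 and −0.95 in that comparison. Between reverted and epiblast stem cells the same probes gave 0.13, 0.40 and 0.98, so the size of that difference depends on the probe. Scaling to a common median turned its sign, to −0.12 for the brightest probe. For Nsdhl the 3 probes detected on all arrays gave −0.51, −0.54 and −0.64 against embryonic stem cells and −0.02, −0.31 and −0.97 against epiblast stem cells. Sqle had −0.66 and −0.58 in the first of these comparisons and −0.80 and −0.36 in the second, by its brighter and dimmer probe. Insig2 had −1.19 by the brighter and −0.27 by the dimmer of its detected probes against epiblast stem cells, and −0.37 and −0.34 against embryonic stem cells.

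**Figure D3:**
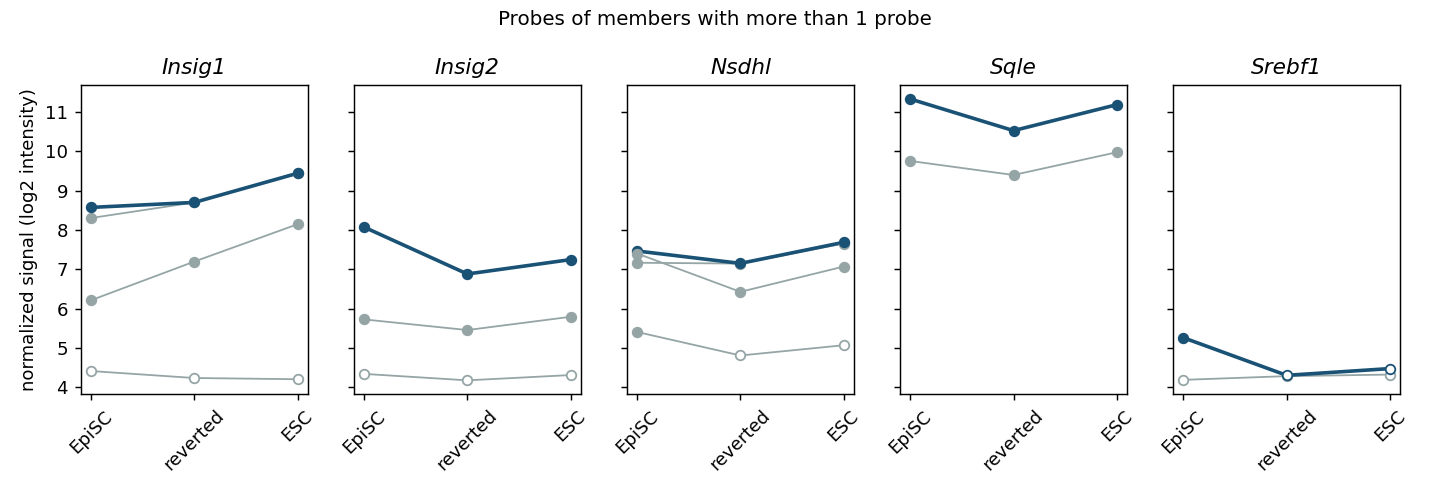
Log2 normalized signal (y axis) of each probe of the 5 genes with several probes on the 3 arrays (x axis, whose order has no meaning), with the probe used for the gene in dark blue, other probes in grey and open symbols where not detected. The 3 detected Insig1 probes are all highest in embryonic stem cells, whereas of the detected Insig2 probes only the one used is highest in epiblast stem cells.

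Fatty acid enzymes were lower in reverted than in epiblast stem cells as well, but mostly by less than 2-fold. All 7 with a value had differences below 0, the median was −0.47, and 1 was at least 2-fold lower, against the 12.4% of all genes given above. With scaling to a common median, their median was −0.81 and that of all genes −0.20. Fasn, the fatty acid synthase gene, was detected on no array by its 1 probe, with raw intensities of 88.3, 83.2 and 99.1, and has no value. This says nothing of the level of the enzyme, only that the probe did not exceed negative controls.

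Scd1 (chromosome 19), a desaturase that makes oleate-type fatty acids, was the member past 2-fold. Its log2 signals were 9.06 ± 0.06 in epiblast, 7.64 ± 0.08 in reverted and 8.62 ± 0.06 in embryonic stem cells, 2.68-fold lower in reverted than in epiblast stem cells (−1.42, bead standard error 0.10). Against embryonic stem cells it was 1.97-fold lower (−0.98, 0.10), and past 2-fold with scaling to a common median (−1.15). Its paralogue Scd2, on the same chromosome, had 7.49, 7.44 and 7.20, and did not differ beyond bead error in any comparison. Scd1 was thus low in reverted cells, which was not seen for Scd2. The largest Scd2 difference, 0.29 higher in epiblast than in embryonic stem cells, had a bead standard error of 0.16. That error is too wide to call the cultures alike.

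The other fatty acid enzymes were highest in epiblast stem cells by modest amounts. Acly, which makes cytosolic acetyl-CoA for both routes, had log2 signals of 11.91, 11.44 and 11.69. Acaca, whose product forms malonyl-CoA, had 9.05, 8.69 and 8.42, and Elovl6, an elongase gene, 9.57, 9.27 and 9.26. The desaturase genes of polyunsaturated fatty acids, Fads1 and Fads2, showed the same order as Elovl6 within bead error. Fads1 had 11.25, 10.70 and 10.72 and Fads2 7.45, 6.72 and 6.77, with reverted and embryonic stem cells alike within bead error. Within the E3 line their differences were −0.55 and −0.73. Scaling to a common median gave −0.81 for Fads1 and for Acly alike, in place of −0.55 and −0.47.

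Sterol and fatty acid enzymes differed in their medians between reverted and embryonic stem cells, which shared a medium but differed in line and reversion. The median log2 difference was −0.49 over 14 sterol enzymes with a value and −0.02 over 7 fatty acid enzymes, 0.47 apart, while the median of all 7286 genes was 0.01. Over enzymes detected on both arrays the gap was 0.53. Of the 14 sterol enzymes 13 lay below 0, of which 2 were bounds, against 4 of 7 fatty acid enzymes. Among other listed genes of fatty acid synthesis and elongation, 15 of 18 lay below 0, with a median of −0.29 and 4 bounds. The gap of 0.47 thus holds against the 7 matched enzymes and not against fatty acid genes in general. No sterol or fatty acid enzyme was past 2-fold. Among all genes 1.54% lay 2-fold or more lower and 1.81% as far above. Of the 26 matched genes with a value these counts were 1 and 0. Of 12 sterol enzymes detected on both arrays, 9 were lower in reverted cells by more than 1.96 bead standard errors and 0 higher. For the 7 fatty acid enzymes these counts were 2 and 1. Of all 6519 genes detected on both arrays, 24.3% were lower and 25.6% higher by that measure. Of 8 reference genes 7 also lay below 0, with a median of −0.18. Gapdh, Hprt, Rplp0 and Tfrc were lower in reverted cells by the same measure, and the others differed by less than it.

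Within the E3 line the medians were −0.80 and −0.47, 0.33 apart. The gap was 0.80 over enzymes detected on both arrays, which leaves out 3 sterol enzymes at bounds, 0.22 with scaling to a common median and 0.11 with the mean of a gene's probes. Which of the 2 comparisons had the wider gap thus depended on how undetected genes entered. Differences ran from −2.34 to −0.01 over 15 sterol enzymes and from −1.42 to −0.05 over 7 fatty acid enzymes. The −0.01 is the bound of Tm7sf2, and Ebp, detected on both arrays, had −0.04. A range widens with the number of genes, so these 2 ranges are not on equal terms.

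Between epiblast and embryonic stem cells both medians lay above 0. Sterol enzymes had a median of 0.30 over 15 genes and fatty acid enzymes of 0.44 over 7, against 0.01 over all 7698 genes. All 7 fatty acid enzymes were higher in epiblast stem cells, by 0.22 to 0.68. Sterol enzymes ranged from −0.62 for Hsd17b7 to 2.24 for Lss, and 4 were at least 2-fold higher in epiblast stem cells (Lss 4.71-fold, Mvd 4.16-fold, Dhcr7 3.90-fold and Msmo1 2.15-fold), among 13.9% of all genes. Scap was the single matched gene at least 2-fold lower, at 2.39-fold, a class of 13.4% of all genes, and under 2-fold when no background was corrected (−0.50) or the offset was 50 (−0.77). The 3 comparisons share their arrays, so they are not independent of each other.

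**Figure D4:**
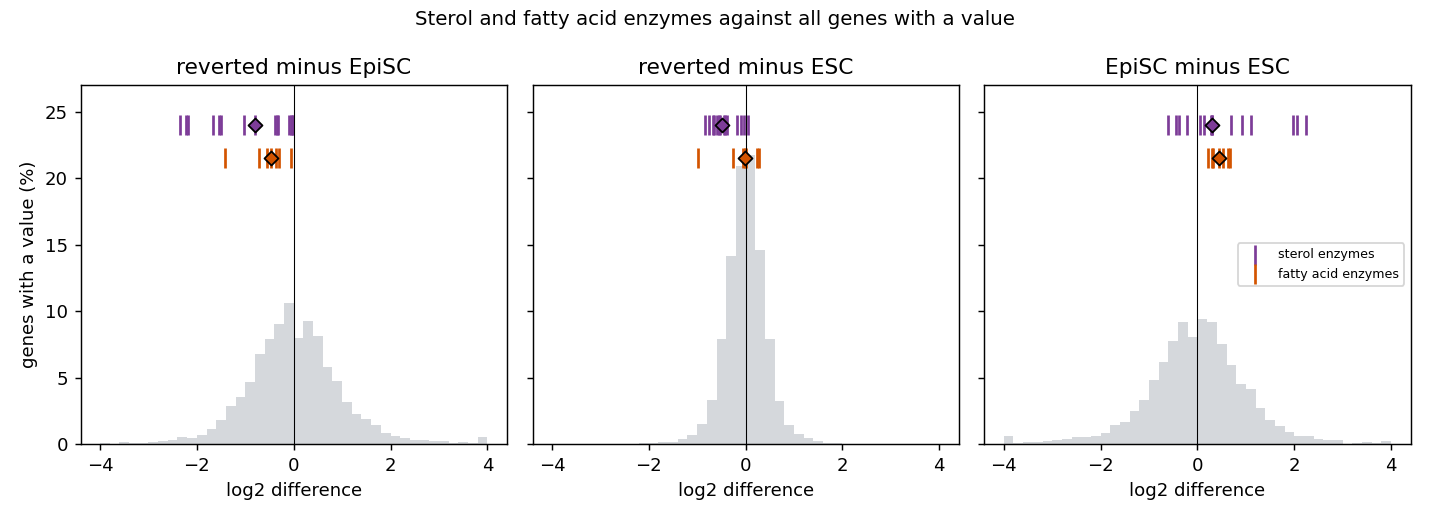
Share of all genes with a value (grey, y axis in percent, differences beyond 4 placed in the outer bins) by log2 difference (x axis) in the 3 comparisons, with ticks for sterol enzymes (upper row) and fatty acid enzymes (lower row), and diamonds at their medians; the height of the rows has no meaning. Medians lie at −0.80 and −0.47, at −0.49 and −0.02, and at 0.30 and 0.44 from left to right.

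Across the 24 matched genes detected on all 3 arrays, epiblast stem cells had the highest signal for 17 (70.8%) and reverted cells the lowest for 17. Over all 6105 genes so detected, these shares were 42.5% and 26.2%. Among 12 sterol enzymes, reverted cells were lowest for 11, the exception being Lss, and highest for 0. These ranks include margins within bead error: Hmgcs1, Mvd and Lss against embryonic stem cells, and Hsd17b7 and Ebp against epiblast stem cells. Among 7 fatty acid enzymes, epiblast stem cells were highest for all 7, and reverted cells lowest for 4. For Fads1 and Fads2 the reverted value was within bead error of embryonic stem cells, and Scd2 did not differ beyond it in any comparison.

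Genes around these routes, taken from lists written with earlier results known, were read on the same scale. Of 8 other sterol synthesis genes 5 were on the array and 2 detected. Lbr, which has sterol reductase activity, and Erg28, a scaffold of the sterol demethylation steps, were 1.38-fold and 1.20-fold higher in reverted than in epiblast stem cells, opposite to the enzymes above. Of 17 genes of sterol uptake and efflux 5 had a value within the E3 line, with a median of −0.00. Apoe, a lipoprotein component that carries cholesterol, had log2 signals of 8.08, 10.95 and 10.41 in epiblast, reverted and embryonic stem cells, a 7.29-fold difference within the E3 line. The lipoprotein receptor gene Vldlr was 2.69-fold lower, with 8.87, 7.45 and 7.13.

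Other genes of fatty acid synthesis and elongation had a lower median than the fatty acid enzymes themselves. Of 30 listed, 17 had a value within the E3 line, 0 lay 2-fold or more above epiblast stem cells and 6 below, against 12.7% and 12.4% of all genes, and the median was −0.76, with 3 values at bounds. Acsl5, which activates long-chain fatty acids, was 5.33-fold lower, with log2 signals of 8.74, 6.32 and 6.38. Hacd1, a dehydratase of the elongation cycle, was 5.00-fold lower, with 9.83, 7.51 and 8.08. The ketoreductase gene Hsd17b12 of the same cycle was 3.29-fold lower. In the same list Me1, which supplies NADPH, was highest in embryonic stem cells: its signals were 6.39, 7.15 and 8.59.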

How the data were processed

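Total RNA of 3 cultures (400 ng each, 12 h of in vitro transcription, Cy-3 label, per the labels' protocols) was measured on 1 array per culture. The authors deposited for each of 25697 probes a raw intensity, its standard error over beads (also an intensity) and a detection p-value, and BeadStudio is the tool named by the submitters' processing notes. The lowest deposited intensity was 66.5, with no sign of background subtraction. The authors also deposited processed intensity values of unstated normalization, which served as an alternative. Their empty cells, 13113 to 13115 per array, were set to 8, the lowest value.

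Raw values went through neqc of limma 3.58.1 under R 4.3.3 (its steps: background from the detection p-values, offset of 16, quantile normalization, log2). This was tested on simulated data in which only bright probes were changed by known folds. Changes of dim genes were not covered. Of all probes, 23978 carried a gene symbol and 1719 none. For 23962 the symbol was taken by gene identifier from GRCm38.p6 names, whether or not it differed. A gene took its probe with the highest mean signal. Detected probes numbered 10791 in epiblast, 9994 in reverted and 9860 in embryonic stem cells, with median bead errors of 0.10, 0.09 and 0.09 (log2). An undetected side of a difference entered at its own signal or, if this was greater, the lowest signal among detected probes of its array (log2 4.87, 5.06 and 5.10). A bound that left no difference gave no value.

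Members, gene lists and alternatives were chosen with earlier results of these data known. All matched members are named, and up to 4 genes of each further list with large differences. Each group being 1 array, no test across samples could be made. Bead errors and detection calls cover these arrays only, and the number of arrays limits the precision.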

Additional observations from a re-analysis of the deposited data

How the results depend on the processing

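Every difference of a member was recomputed under 8 settings (the mean of a gene's probes, no background correction, a background offset of 50, the authors' processed values, scaling to a common median, and detection required at p under 0.05, or on both arrays, or not at all). No member past 2-fold changed sign, and among the others 5 recomputed values did. Within the E3 line 191 of 219 recomputed values moved by less than 1.96 bead standard errors, against embryonic stem cells 197 of 206 for reverted and 207 of 222 for epiblast stem cells. Many of these values could not move. The detection settings leave a gene detected on both arrays unchanged, and the mean of probes leaves a gene with 1 probe unchanged. These counts therefore overstate how stable the differences are. In counts, reverted against epiblast stem cells had 0 members at least 2-fold higher without background correction in place of 1, and 4 in place of 10 lower at 3-fold. Reverted against embryonic stem cells had 2 in place of 1 lower with scaling to a common median and with the authors' values, Scd1 and Pmvk being added. Epiblast against embryonic stem cells had 0 in place of 1 lower without background correction, with the offset of 50 and at 3-fold, and 2 with the mean of the probes. The median of fatty acid enzymes within the E3 line went from −0.47 to −0.81 with scaling to a common median, which moved the median of all genes from −0.02 to −0.20. The median of sterol enzymes there went from −0.80 to −1.27, and its gap to fatty acid enzymes from −0.33 to −0.80, over enzymes detected on both arrays, where fewer genes enter. The gap was −0.11 with the mean of the probes, where the sterol median was −0.58. Dim genes (Idi1, Tm7sf2, Sc5d, Srebf1, Fasn, Scap in epiblast stem cells) lie near the background, which limits their values. No paired analysis was possible because each group has 1 array.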

Other observations

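Genes of fatty acid breakdown had a median above 0 within the E3 line. Of 22 listed genes of fatty acid oxidation 18 had a value, with a median log2 difference of 0.37 for reverted minus epiblast stem cells. Of these, 3 lay 2-fold or more above 0 and 2 below, classes that held 12.7% and 12.4% of all genes. Slc25a20, the mitochondrial acylcarnitine carrier gene, had log2 signals of 8.08, 9.86 and 10.70 in epiblast, reverted and embryonic stem cells, 3.44-fold higher in reverted than in epiblast stem cells. Acads, a short-chain acyl-CoA dehydrogenase gene, had 6.58, 8.22 and 8.06. Acadl, for long chains, ran the other way with 6.88, 5.67 and 5.83. Acaa2, a thiolase gene, had 7.49, 8.45 and 9.67 and was the 1 listed oxidation gene at least 2-fold lower in reverted than in embryonic stem cells, at 2.34-fold. Between epiblast and embryonic stem cells the median of 17 oxidation genes was −0.78, and 5 lay 2-fold or more below 0 and 2 above, against 13.4% and 13.9% of all genes.

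Genes that process SREBP or degrade sterol-regulated proteins had a median of 0.24 over 8 with a value within the E3 line. Erlin1, which takes part in the sterol-dependent turnover of endoplasmic reticulum proteins, had log2 signals of 5.49, 6.85 and 7.24 and was 2.56-fold higher in reverted than in epiblast stem cells. Its partner Erlin2 had 7.44, 8.36 and 8.35. Aup1, of the same degradation machinery, was 2.18-fold lower in reverted cells, with 10.07, 8.94 and 8.73. Mbtps2, which encodes the protease that completes the cleavage of SREBP, was detected in reverted cells alone (5.55).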
